A study of Mus musculus with 6 samples.

Results

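The keratins of simple epithelia, vimentin, nestin and the neuronal filaments were described in preSC cells, a mouse line labelled as a precursor of small cell lung cancer, through 9 named intermediate filament genes out of 23284 genes counted. The genes were Krt7, Krt8, Krt18, Krt19, Vim, Nes, Nefl, Nefm and Ina, taken by symbol from the read count file of each library. Cells with a lentiviral pLKO.1 hairpin against Crebbp (shCrebbp, 3 libraries, each with a different hairpin, numbered 1, 2 and 5) were compared with cells with a pLKO.1 control vector (3 libraries, of which shEmpty and shEmpty-2 carried the empty vector and shNS a non-silencing hairpin). Crebbp encodes the histone acetyltransferase CREB-binding protein. All 6 libraries were of the same line. The labels used here give neither the genotype of the line nor whether libraries came from separate cultures. The spread between libraries may therefore be technical, and among the knockdown libraries it includes differences between hairpins.

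Intermediate filaments are built from coiled-coil proteins whose kind marks the cell type. Keratins form filaments only as a type II chain joined to a type I chain, and Krt8 with Krt18 is the first such combination of simple epithelia, with Krt7 (type II) and Krt19 (type I) added in ducts and airways. Vimentin is the filament of mesenchymal cells and of many cultured lines, nestin is a progenitor filament that needs a partner such as vimentin to assemble, and Nefl, Nefm and Ina encode the neurofilament light chain, the neurofilament medium chain and alpha-internexin of neurons.

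The libraries held 13622020 to 19804949 reads in genes. Levels are given as CPM, read counts scaled by library size with TMM (edgeR's correction for library composition). The targeted gene Crebbp stood at 46.2, 58.3 and 48.9 CPM with hairpins 1, 2 and 5, against 66.2, 69.6 and 69.4 CPM in shEmpty, shEmpty-2 and shNS. All hairpin libraries lay below all controls for Crebbp, as in 11.0% of all tested genes. Its log2 fold change was -0.42 ± 0.10 (SE), with an edgeR adjusted p of 0.0999. The labelled lineage was checked against neuroendocrine markers, of which Calca, the gene of the neuropeptide CGRP, stood at 875 ± 268 CPM with the hairpins and 1803 ± 209 CPM in controls (SD, n = 3 each, edgeR adjusted p = 0.0558). The epithelial adhesion genes Epcam and Cdh1, chosen after their values were seen, were also expressed, at 349 ± 94.1 and 326 ± 73.6 CPM with the hairpins and 637 ± 125 and 653 ± 103 CPM in controls (edgeR adjusted p = 0.0971 and 0.0361). Basal, glial and leukocyte markers Trp63, Gfap and Emr1 had 0 reads in every library.

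The 9 genes fell into a high and a low set, and the simple epithelial label held for 3 of its 4 keratins. Krt8, Krt7 and Krt18 were abundant, Ina was next, Nes was low, and Krt19, Vim, Nefm and Nefl were near the detection limit. Per kilobase of transcript, the scale needed to compare genes of different length, Krt8 averaged 201 ± 40.3 CPM per kb with the hairpins and 446 ± 30.7 CPM per kb in controls. Krt7 averaged 182 ± 12.3 CPM per kb with the hairpins and 260 ± 8.62 CPM per kb in controls. Krt18 averaged 121 ± 11.0 CPM per kb with the hairpins and 253 ± 1.53 CPM per kb in controls. The median detected gene stood at 6.01 CPM per kb with the hairpins and 5.92 CPM per kb in controls, so these keratins ranked between 269 and 527 from the top of 17145 genes with the hairpins and between 110 and 207 of 17223 in controls.

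Ina averaged 49.9 ± 1.79 CPM per kb with the hairpins and 42.5 ± 2.45 CPM per kb in controls, above 90.3% and 88.3% of detected genes. Nes averaged 2.43 ± 1.71 CPM per kb with the hairpins and 2.88 ± 0.671 CPM per kb in controls, below the median gene in both groups. The remaining 4 genes averaged under the level of Nes in both groups, at 0.237 to 0.62 CPM per kb with the hairpins and 0.0144 to 0.317 CPM per kb in controls. The ranges of Krt8 and Krt7 overlapped with the hairpins and lay apart in controls, while those of Krt7 and Krt18 lay apart with the hairpins and overlapped in controls. Ranges of neighbours among Nefm, Krt19, Vim and Nefl overlapped with the hairpins. In controls the ranges overlapped from Krt19 to Vim and from Vim to Nefm, and Nefl lay below. The order of the abundant keratins rested on the annotated length of Krt7 (4094 bases of transcript, 1371 of coding sequence). Per kilobase of coding sequence, a scale chosen after seeing the data, Krt7 came first, at 543 ± 36.7 CPM per coding kb with the hairpins and 777 ± 25.7 in controls, ahead of Krt8 at 267 ± 53.7 and 594 ± 40.9.

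**Figure D1:**
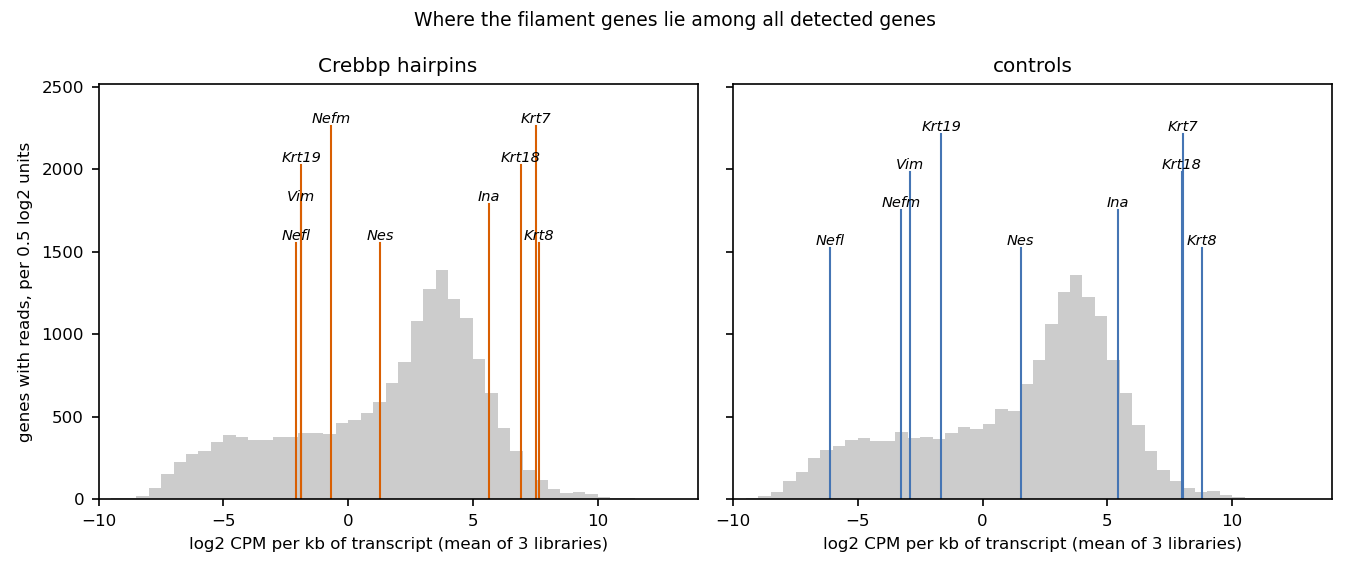
Number of genes (vertical axis) at each level (horizontal axis, log2 of the mean CPM per kb of transcript over 3 libraries) with Crebbp hairpins (left) and in controls (right), with a line for each filament gene. Krt7, Krt8 and Krt18 lie at the upper end, and Krt19, Vim, Nefm and Nefl lie below the median gene in both groups.

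Krt8, Krt18 and Krt7 fell with the Crebbp hairpins. They were 3 of the 5 genes among the 9 that passed the filter on low counts, against 1.25% of the 13390 genes tested that were called in either direction and 0.978% called lower (edgeR quasi-likelihood test, Benjamini-Hochberg adjusted p under 0.05). DESeq2 also called these 3 lower, with 3.1% of genes called lower. The median log2 fold change of the 5 was -0.52, beside 0.01 over all tested genes. Since a gene had to reach the filter in at least 3 libraries, the other 4 genes (Krt19, Vim, Nefl and Nefm) had no test and are given as reads.

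Krt8, the type II chain of the simple epithelial combination, stood at 348, 347 and 484 CPM with hairpins 1, 2 and 5, against 925, 889 and 807 CPM in shEmpty, shEmpty-2 and shNS. The groups did not overlap, and hairpin 5 gave the highest level of the knockdown libraries. Krt8 fell 2.22-fold, with a log2 fold change of -1.15 ± 0.14 (SE) and an edgeR adjusted p of 0.0131. Krt18, its type I partner, stood at 156, 178 and 186 CPM with hairpins 1, 2 and 5, against 362, 364 and 366 CPM in shEmpty, shEmpty-2 and shNS. The controls of Krt18 lay within 1.01-fold of each other, while the hairpin libraries spanned 1.2-fold and again had hairpin 5 as the highest. Krt18 fell 2.10-fold, with a log2 fold change of -1.07 ± 0.09 (SE) and an edgeR adjusted p of 0.00593, the third smallest p of all tested genes.

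Krt7, a type II keratin of ductal and airway epithelium and the keratin with most reads, fell by a smaller fold, a difference between genes that was not tested. It stood at 749, 693 and 793 CPM with hairpins 1, 2 and 5, against 1026, 1095 and 1074 CPM in shEmpty, shEmpty-2 and shNS. The groups did not overlap, and hairpin 5 was once more the highest of the hairpin libraries. Krt7 fell 1.43-fold, with a log2 fold change of -0.52 ± 0.08 (SE) and an edgeR adjusted p of 0.0284. A lack of overlap in the lower direction was seen in 11.0% of all tested genes.

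The calls depended on the control libraries. In edgeR, adjusted p for Krt8, Krt18 and Krt7 was 0.0871, 0.0513 and 0.154 without shEmpty, and 0.101, 0.0678 and 0.204 without shEmpty-2, and in both cases 0.0% of all genes were called. Without shNS, edgeR called 0.332% of genes lower, and Krt7 missed the threshold (adjusted p = 0.109) while Krt8 and Krt18 passed it (adjusted p = 0.0423 and 0.0295). The log2 fold changes hardly moved, at -1.15 to -1.11 for Krt8, -1.08 for Krt18 and -0.54 to -0.50 for Krt7 without either empty-vector library, and DESeq2 called all 3 genes lower without shEmpty and without shEmpty-2, where it called 1.21% and 1.19% of genes lower. These DESeq2 fits were chosen after seeing the data. In RNA from whole cultures, fewer cells that express a keratin and less keratin RNA per cell cannot be told apart.

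**Figure D2:**
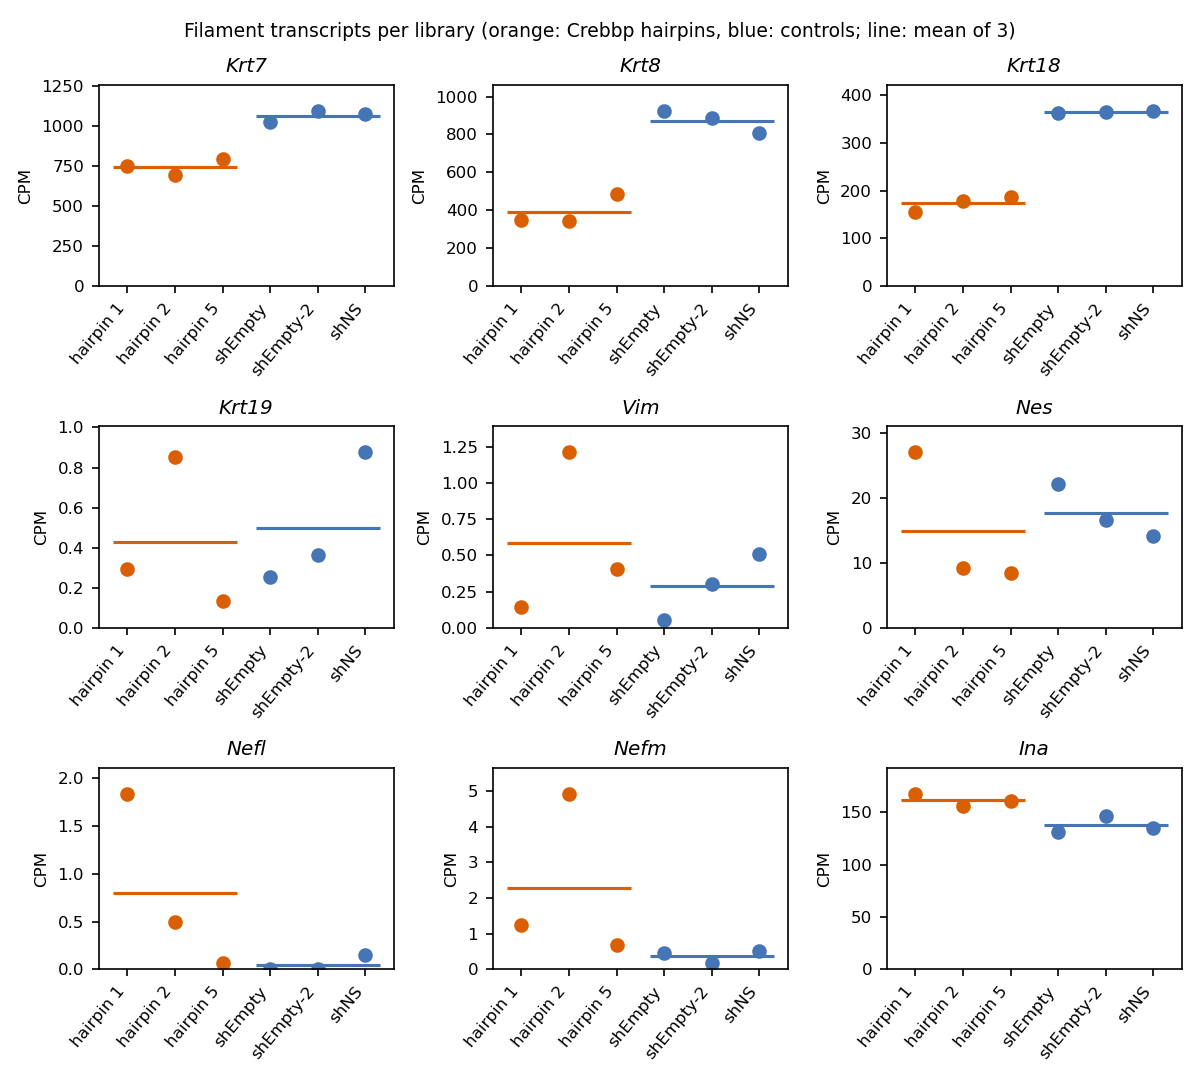
CPM of each filament gene (vertical axis, from 0, a scale for each gene) in the 3 Crebbp hairpin libraries (orange) and the 3 control libraries (blue), with a line at each group mean. Krt7, Krt8 and Krt18 have every hairpin library below every control, while Krt19, Vim and Nes overlap between groups.

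The balance within the keratins was measured as ratios inside each library, which do not depend on library size. The Krt8 to Krt18 ratio per kilobase came to 1.64, 1.43 and 1.91 with hairpins 1, 2 and 5, against 1.87, 1.79 and 1.62 in shEmpty, shEmpty-2 and shNS. The groups overlapped, with a mean log2 ratio of 0.72 ± 0.21 with the hairpins and 0.81 ± 0.11 in controls (SD, n = 3 each; exact two-sided permutation test, p = 0.7, where the smallest p possible is 0.1). The Krt8 to Krt7 ratio per kilobase came to 0.972, 1.05 and 1.28 with hairpins 1, 2 and 5, against 1.89, 1.70 and 1.57 in shEmpty, shEmpty-2 and shNS. Each hairpin library was under each control in this ratio, a mean difference of -0.65 on the log2 scale that was computed after the values were seen and was not tested. The ratio of all type II to all type I members, Krt7 plus Krt8 to Krt18 plus Krt19, came to 3.32, 2.78 and 3.40 with hairpins 1, 2 and 5, against 2.87, 2.85 and 2.64 in shEmpty, shEmpty-2 and shNS. It overlapped between groups (difference in mean log2 ratio 0.18, exact two-sided permutation test, p = 0.3).

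The summed level of Krt7, Krt8, Krt18 and Krt19 was 504 ± 58.1 CPM per kb with the hairpins and 960 ± 25.9 CPM per kb in controls (SD, n = 3 each). Of the summed level of the 9 genes, the keratins made up 89.2%, 90.1% and 91.7% with hairpins 1, 2 and 5, against 95.6%, 95.3% and 95.4% in shEmpty, shEmpty-2 and shNS. Keratins of every kind took 0.124% to 0.148% of all gene reads with the hairpins and 0.227% to 0.236% in controls.

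**Figure D3:**
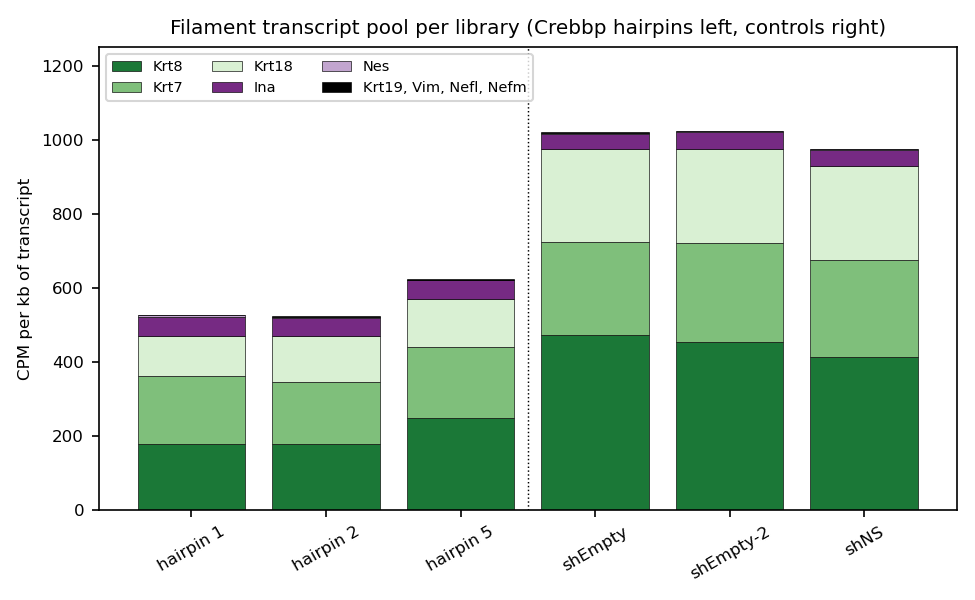
Stacked levels (vertical axis, CPM per kb of transcript) of the filament genes in each library, Crebbp hairpins left of the dotted line and controls right of it. The keratin part of the bar is at most 571 CPM per kb with the hairpins and at least 930 CPM per kb in controls, and the Ina part is 48.2 to 51.8 CPM per kb with the hairpins and 40.7 to 45.3 CPM per kb in controls.

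Krt7, Krt8 and Krt18 lie in the same keratin cluster of chromosome 15, in the RefSeq annotation of GRCm38.p6, which was used for gene order and promoter sequence and for no position of the counts, because the counts were made on mm9. Krt18 is the type I gene that lies at the end of the type II cluster beside Krt8, with 0 annotated protein-coding genes between them, whereas 23 lie between Krt7 and Krt8. Of these 23, 19 are in the count files. They were nearly silent: 9 had 0 reads in every library, and the most expressed, the hair keratin gene Krt83, had 138 reads over the 6 libraries. Krt80, a type II keratin next to Krt7 on its other side, stood at 0.662 ± 0.0841 CPM with the hairpins and 1.54 ± 0.180 CPM in controls (log2 fold change -1.21 ± 0.30, edgeR adjusted p = 0.1). Eif4b, a translation initiation factor gene and the next protein-coding gene after Krt18, stood at 356 ± 6.35 CPM with the hairpins and 367 ± 6.88 CPM in controls (log2 fold change -0.04 ± 0.07, edgeR adjusted p = 0.817). Krt83 and Eif4b were chosen after their values were seen.

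**Figure D4:**
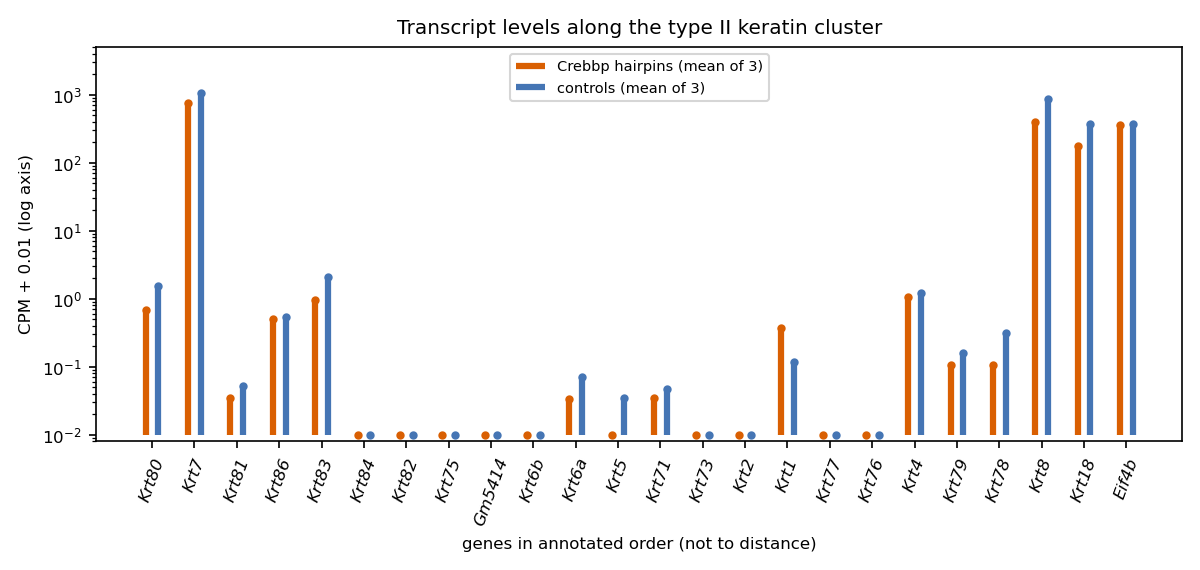
Mean CPM plus 0.01 (vertical axis, log scale) of the protein-coding genes of the type II keratin cluster that are in the count files, in annotated order, for Crebbp hairpins (orange) and controls (blue). Expression sits at the ends of the cluster, in Krt7 on one side and in Krt8 and Krt18 on the other, and the genes between lie at or near 0.

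The 250 bases before the annotated start are shown for the keratin genes called lower. A part of promoter sequence in their levels was not tested. The sequences are from RefSeq (GRCm38.p6), 5′ to 3′, at chr15:101412153-101412402 on the plus strand for Krt7, chr15:102004343-102004592 on the minus strand for Krt8 and chr15:102027966-102028215 on the plus strand for Krt18. Capitals mark matches to the searched motifs on either strand.
Krt7: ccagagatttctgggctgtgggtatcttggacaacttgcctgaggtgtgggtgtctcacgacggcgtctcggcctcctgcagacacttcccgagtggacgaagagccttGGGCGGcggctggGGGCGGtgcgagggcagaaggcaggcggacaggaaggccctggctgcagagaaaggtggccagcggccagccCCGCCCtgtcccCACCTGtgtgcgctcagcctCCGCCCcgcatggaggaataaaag
Krt8: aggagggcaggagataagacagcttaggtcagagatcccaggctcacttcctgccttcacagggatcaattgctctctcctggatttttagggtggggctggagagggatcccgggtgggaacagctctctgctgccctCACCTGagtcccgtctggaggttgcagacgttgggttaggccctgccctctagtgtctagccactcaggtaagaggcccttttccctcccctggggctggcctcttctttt
Krt18: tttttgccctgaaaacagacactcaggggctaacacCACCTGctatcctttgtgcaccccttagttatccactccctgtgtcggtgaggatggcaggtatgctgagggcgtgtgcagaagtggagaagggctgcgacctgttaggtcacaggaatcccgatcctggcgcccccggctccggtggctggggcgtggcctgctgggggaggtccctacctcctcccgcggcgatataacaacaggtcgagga

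The motifs searched were AP-1 (TGANTCA), the GC box (GGGCGG), the E-box bound by ZEB and SNAIL repressors (CAGGTG) and the short core of the cyclic AMP response element (TGACG), on both strands, in windows of 250 bases. Each of the 3 promoters held 1 match to CAGGTG, on the minus strand and so printed as CACCTG, which begins 44 bases before the start in Krt7, 111 in Krt8 and 214 in Krt18. Of all 32851 promoter windows in the table, 17.2% held this motif. Krt7 also held 4 GC boxes, a motif in 32.7% of windows, while Krt8 and Krt18 held 0. None of the 3 windows held a match to AP-1 or to the cyclic AMP core, which were in 6.75% and 17.8% of windows. Of the other genes, Vim, Nes and Ina had a window in the table, and none of these 3 held CAGGTG. A match describes letters and is not a measured binding site.

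Genes were ranked by how near their profile over the 6 libraries came to the mean of Krt8 and Krt18. By root mean square difference of centred log2 CPM, among the 11519 tested genes whose mean log2 CPM reached 2, the 5 nearest were Spint1 (0.067), a membrane inhibitor of serine proteases, St14 (0.073), the membrane protease matriptase, Cldn3 (0.078), a tight junction claudin, Tmem184a (0.089) and Scnn1a (0.092), a subunit of the epithelial sodium channel. Taken gene to gene rather than to that mean, Krt8 and Krt18 differed by 0.144 and Krt7 and Krt18 by 0.292. These gene-to-gene values cannot be set against the distances to the mean given above. Scnn1a stood at 34.5, 42.7 and 42.9 CPM with hairpins 1, 2 and 5, against 84.8, 86.9 and 77.4 CPM in shEmpty, shEmpty-2 and shNS. Its log2 fold change was -1.05 and that of Tmem184a -1.19. The genes were picked for a profile like that of Krt8 and Krt18 in these libraries, so their lower levels follow from the choice and are given as a description, with no test.

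Other keratins were scarce. The files held 51 keratin genes, of which 24 had 0 reads in every library and 44 had under 100 reads over the 6 libraries, and Krt7, Krt8 and Krt18 gave 98.8% to 99.3% of keratin reads in each library. Krt19, the type I keratin that often accompanies Krt7, had 4, 12 and 2 reads with hairpins 1, 2 and 5, against 5, 6 and 12 reads in shEmpty, shEmpty-2 and shNS. The groups overlapped, and the ratio of pooled rates was 0.918 (exact 95% interval 0.467 to 1.78, counting error only). Krt10, a suprabasal type I keratin chosen after its values were seen, was the next in reads and stood at 9.01 CPM with the hairpins and 8.73 CPM in controls (log2 fold change 0.04 ± 0.18, edgeR adjusted p = 0.946). Of 28 other keratins listed for simple and stratified epithelia that were in the files, 3 were tested and 12 had 0 reads throughout. Of the 3, 0 were called in edgeR or DESeq2, beside 1.25% and 5.3% of all genes. An unadjusted edgeR p under 0.05 was found in 1, beside 16.5% of all tested genes. Krt5 and Krt14, the basal cell combination, had 1 read each in the whole series (both chosen after their values were seen).

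Vimentin was almost absent. Vim had 2, 17 and 6 reads with hairpins 1, 2 and 5, against 1, 5 and 7 reads in shEmpty, shEmpty-2 and shNS. These reads amount to 0.147, 1.21 and 0.408 CPM with the hairpins and 0.0511, 0.305 and 0.511 CPM in controls, and the exact 95% intervals reached at most 1.94 CPM with the hairpins and 1.05 CPM in controls. Hairpin 2 was the highest library, and hairpins 1 and 5 lay within the control range. The ratio of pooled rates was 2.26 (exact 95% interval 1.11 to 4.80), an interval for counting error only that leaves out the spread between libraries. Without a filter on low counts, edgeR gave Vim a log2 fold change of 1.08 and an adjusted p of 0.654. The Vim to simple keratin ratio per kilobase was higher by 2.0 on the log2 scale in the mean of the hairpin libraries, -11.4 ± 1.53 against -13.4 ± 1.77 in controls (SD, n = 3 each), with overlapping groups (exact two-sided permutation test, p = 0.2). The difference was 1.01 without shEmpty, where Vim had 1 read, and 1.19 without hairpin 2.

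The genes nearest to the Vim profile, by the same measure, were Ildr2 (0.294), Hoxb8 (0.369), 2900011O08Rik (0.402), Dach2 (0.434) and Scml2 (0.452), each highest with hairpin 2. These genes were picked for this profile, so their values are a description, and the Vim profile rests on 1 to 17 reads a library. Of 10 fibroblast markers, 4 were tested and Col3a1 had 0 reads throughout. Of the 4, 0 were called in edgeR or DESeq2, beside 1.25% and 5.3% of all genes. An unadjusted edgeR p under 0.05 was found in 1, beside 16.5% of all tested genes. The sum of the 10 markers was 15.6 to 65.6 CPM with the hairpins and 39.6 to 46.9 CPM in controls. Most of it came from the proteoglycan gene Dcn (35.0 ± 25.3 and 39.1 ± 3.98 CPM).

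Nestin did not share a direction over the hairpins. Nes stood at 27.0, 9.19 and 8.51 CPM with hairpins 1, 2 and 5, against 22.2, 16.6 and 14.2 CPM in shEmpty, shEmpty-2 and shNS. Hairpin 1 lay above every control and hairpins 2 and 5 below every control, each a single library. The log2 fold change was -0.25 ± 0.42 (SE, edgeR adjusted p = 0.832). Without hairpin 1 it was -1.0 (adjusted p = 0.0517), and without hairpin 5 it turned to 0.02 (adjusted p = 0.989). The genes nearest to the Nes profile were Fstl4 (0.146), Atg9b (0.18), Mical3 (0.216), Syt14 (0.235) and Grin3a (0.239). Fstl4, for example, stood at 30.3, 12.2 and 10 CPM with hairpins 1, 2 and 5, against 21.9, 20.6 and 18.8 CPM in shEmpty, shEmpty-2 and shNS, a description of a gene picked for this profile.

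Among the neuronal filaments, Ina was the abundant chain. Alpha-internexin is made early in neurons and can assemble without the other neurofilament chains. Ina stood at 168, 156 and 161 CPM with hairpins 1, 2 and 5, against 132, 147 and 135 CPM in shEmpty, shEmpty-2 and shNS. All hairpin libraries lay above the controls, which 11.4% of tested genes also showed, and the log2 fold change of 0.23 ± 0.08 (SE) did not pass (edgeR adjusted p = 0.2). Ina made up 9.84%, 9.23% and 7.98% of the summed level of the 9 genes with hairpins 1, 2 and 5, against 3.99%, 4.43% and 4.27% in shEmpty, shEmpty-2 and shNS. The keratins are most of that sum, so these shares also carry the fall of the keratins. The summed level of Nefl, Nefm and Ina was 50.8 ± 1.66 CPM per kb with the hairpins and 42.6 ± 2.39 CPM per kb in controls, while that of the keratins was 504 and 960 CPM per kb. The ratio of these sums, whose denominator holds the keratins that were called lower, was higher by 1.19 on the log2 scale in the mean of the hairpin libraries, -3.31 ± 0.19 against -4.49 ± 0.08 in controls (SD, n = 3 each), with the groups apart (exact two-sided permutation test, p = 0.1, the smallest this design allows).

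Nefl and Nefm, the light and medium chains, were at the detection limit and uneven between hairpins. Nefl had 25, 7 and 1 reads with hairpins 1, 2 and 5, against 0, 0 and 2 reads in shEmpty, shEmpty-2 and shNS. A count of 0 allows up to 0.153 CPM in shEmpty and 0.183 CPM in shEmpty-2 (3 reads, counting error only). Hairpin 1 was the highest library, and hairpin 5 fell within the control range. Nefm had 17, 69 and 10 reads with hairpins 1, 2 and 5, against 9, 3 and 7 reads in shEmpty, shEmpty-2 and shNS. Hairpin 2 was the highest library. All hairpin libraries lay above the controls, as in 11.4% of all tested genes, with hairpin 5 (0.68 CPM) only just above shNS (0.511 CPM). The ratio of pooled rates was 19.4 for Nefl (exact 95% interval 4.95 to 166) and 5.93 for Nefm (3.60 to 10.3), for counting error only. Without a filter, edgeR gave adjusted p = 0.233 for Nefl and 0.195 for Nefm. DESeq2, which called 2.2% of genes higher, called Nefm (log2 fold change 2.56, adjusted p = 0.0351) with all libraries, but not without shEmpty (adjusted p = 0.181) or without shEmpty-2 (adjusted p = 0.303).

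Neuronal markers were measured beside these chains. Over 9 such markers in the files, the summed level came to 1120, 1564 and 1275 CPM with hairpins 1, 2 and 5, against 1031, 1053 and 1052 CPM in shEmpty, shEmpty-2 and shNS, and no marker was at 0 in every library. Of the 9, 0 were called in edgeR, beside 1.25% of all tested genes. An unadjusted edgeR p under 0.05 was found in 5, beside 16.5% of all tested genes. DESeq2 called 3 of the markers higher, beside 2.2% of all genes. Of the log2 fold changes 7 were positive and 2 negative, beside 46.8% negative over all tested genes, and their part in the neurofilament values was not tested. The most abundant, the neuronal RNA-binding protein gene Elavl3, stood at 489 ± 87.9 CPM with the hairpins and 332 ± 15.3 CPM in controls (log2 fold change 0.56 ± 0.13, edgeR adjusted p = 0.0822). Stmn2, a tubulin-binding protein gene of growing axons that was chosen after its values were seen, stood at 7.86, 59.8 and 13.2 CPM with hairpins 1, 2 and 5, against 0.715, 2.56 and 4.82 CPM in shEmpty, shEmpty-2 and shNS (edgeR adjusted p = 0.108). Hairpin 2 was the highest library for Stmn2 and for Nefm, while hairpin 1 was the highest for Nefl. The synaptic genes Snap25 and Syt1 had the 2 negative values, and both were chosen after their values were seen. Snap25 stood at 104 ± 27.1 CPM with the hairpins and 125 ± 4.40 CPM in controls (edgeR adjusted p = 0.516). All hairpin libraries of Snap25 lay below the controls, as in 11.0% of all tested genes. Syt1 stood at 202 ± 45.1 CPM with the hairpins and 226 ± 32.1 CPM in controls (edgeR adjusted p = 0.697).

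**Figure D5:**
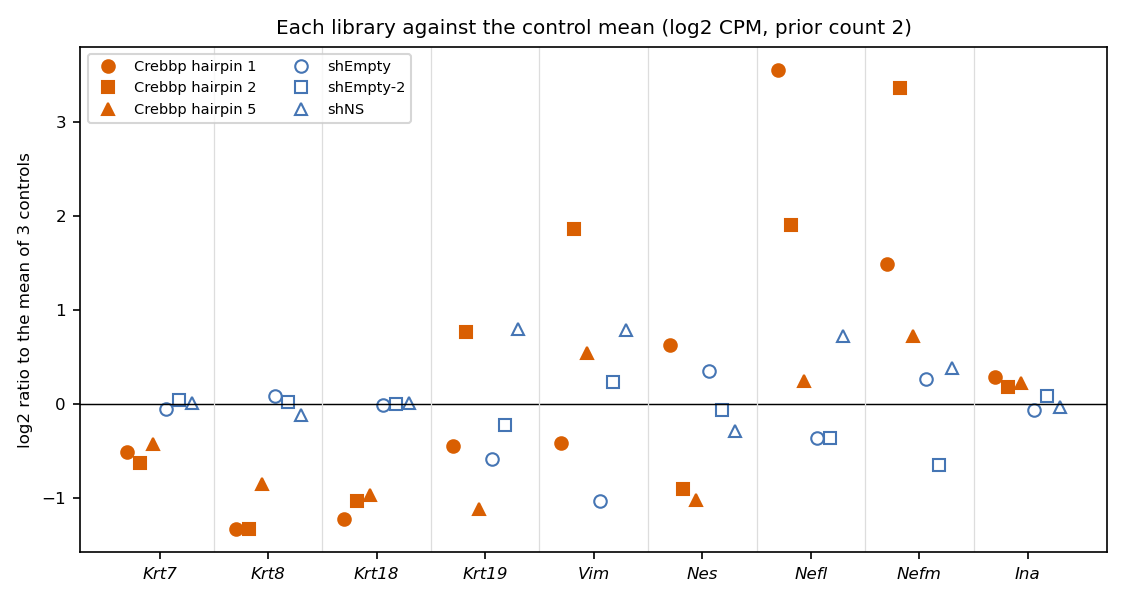
Log2 ratio of each library to the mean of the 3 controls (vertical axis, log2 CPM with a prior count of 2) for each filament gene, with hairpin libraries filled orange and controls open blue. Krt7, Krt8 and Krt18 have all hairpins below 0 and close together, whereas the hairpins of Nes, Nefl, Nefm, Vim and Krt19 lie far apart from each other.

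The other filament genes of the cell and nucleus were tested from a list of 11, of which 8 passed the filter. Of the 8, 0 were called in edgeR, beside 1.25% of all tested genes. An unadjusted edgeR p under 0.05 was found in 2, beside 16.5% of all tested genes. There were 4 positive and 4 negative log2 fold changes, with a median of 0.16. Lmna, the gene of the nuclear lamins A and C, stood at 199, 153 and 228 CPM with hairpins 1, 2 and 5, against 353, 336 and 286 CPM in shEmpty, shEmpty-2 and shNS. All hairpin libraries lay below all controls, as in 11.0% of all tested genes. The log2 fold change of Lmna, -0.75 ± 0.15 (SE), missed the threshold (edgeR adjusted p = 0.0611). DESeq2 called 1 gene of this list lower, beside 3.1% of all genes. Nefh, the neurofilament heavy chain gene, stood at 92.7 ± 12.5 CPM with the hairpins and 74.6 ± 5.75 CPM in controls (log2 fold change 0.31 ± 0.11, edgeR adjusted p = 0.224). Per kilobase Nefh averaged 23.2 CPM per kb with the hairpins and 18.7 CPM per kb in controls, above its partner Nefl at 0.237 and 0.0144 CPM per kb. Prph, the peripherin gene of peripheral neurons, stood at 28.2 ± 6.28 CPM with the hairpins and 29.1 ± 4.21 CPM in controls, and the astrocyte filament Gfap had 0 reads throughout. Prph was chosen after its values were seen.

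A list of cytolinkers, desmosomal plaque genes and genes tied to keratin filaments held 20 tested genes. Of these 3 were called lower and 0 higher in edgeR, beside 0.978% of all tested genes called lower, and 9 had an unadjusted p under 0.05, beside 16.5% of all. Negative log2 fold changes were found in 18, beside 46.8% of all tested genes, and the median was -0.36, beside 0.01 over all genes. Eppk1, the gene of the keratin-bundling protein epiplakin, stood at 1.69, 2.07 and 1.77 CPM with hairpins 1, 2 and 5, against 8.89, 7.07 and 5.11 CPM in shEmpty, shEmpty-2 and shNS, and fell 3.81-fold (log2 fold change -1.93 ± 0.27, edgeR adjusted p = 0.0222). Cgn, the gene of cingulin, a tight junction protein tied to actin rather than to keratins, fell 1.73-fold to 29.5 ± 2.89 CPM with the hairpins, against 51.0 ± 5.75 CPM in controls (edgeR adjusted p = 0.0272). Ppl, the periplakin gene, fell 1.52-fold to 29.1 ± 2.503 CPM with the hairpins, against 44.1 ± 4.31 CPM in controls (edgeR adjusted p = 0.0484). The desmoplakin gene Dsp, which anchors keratins at desmosomes and was chosen after its values were seen, stood at 98.2 ± 25.4 CPM with the hairpins and 171 ± 5.78 CPM in controls and did not pass (edgeR adjusted p = 0.064). The plectin gene Plec, also chosen after its values were seen, had a log2 fold change of -0.0046 ± 0.12 (edgeR adjusted p = 0.991). The count of 3 became 6 with DESeq2 (3.1% of all genes lower) and 0 without shEmpty or without shEmpty-2 (0.0% of all genes called). It became 7 with limma-voom using library quality weights, 5 without hairpin 1 and 1 without hairpin 2, all lower. Over all genes, these settings called 409, 237 and 81 lower, in that order, beside 131 in the main edgeR fit.

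Of 19 genes for kinases, binding proteins and turnover of vimentin and nestin, 0 were called in edgeR, beside 1.25% of all tested genes. An unadjusted edgeR p under 0.05 was found in 4, beside 16.5% of all tested genes. DESeq2 called 2, beside 5.3% of all genes. There were 8 negative and 11 positive log2 fold changes, with a median of 0.03. Nearest to the threshold were Plk1, a mitotic kinase gene (log2 fold change -0.48 ± 0.13, edgeR adjusted p = 0.111), and Fhl1, a LIM domain protein gene (1.07 ± 0.34, edgeR adjusted p = 0.172). Of 18 genes for neurofilament transport and phosphorylation and for the axonal cytoskeleton, 1 was called higher and 0 lower, 9 had an unadjusted p under 0.05, beside 16.5% of all tested genes. Negative log2 fold changes were found in 3 and positive ones in 15, beside 46.8% negative over all tested genes, and the median was 0.25, beside 0.01 over all. The list shares Tubb3, Stmn2 and Gap43 with the neuronal markers. The gene called was Mapk10, the neuronal JNK3 kinase, which stood at 28.7, 33.3 and 27.4 CPM with hairpins 1, 2 and 5, against 13.9, 15.3 and 17.01 CPM in shEmpty, shEmpty-2 and shNS. It rose 1.94-fold (log2 fold change 0.96 ± 0.13, edgeR adjusted p = 0.021), and the share of all tested genes called higher was 0.276%. With DESeq2 the count was 5, all higher, beside 2.2% of all genes called higher. In edgeR it was 0 without shEmpty or shEmpty-2, where 0.0% of all genes were called, and 0 without shNS, where 0.0222% were called higher.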

How the data were processed

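RNA was measured in 6 libraries made, per the labels' protocols, from 500 ng of total RNA by oligo(dT) selection and an Illumina-compatible kit. For each library the authors deposited a table of read counts by gene symbol. Tools named in the submitters' processing notes are HTSeq 0.6.1, TopHat2 2.0.12 and bcl2fastq 1.8.2, with the build mm9. The sources used here give no annotation, strand setting or overlap rule, so reads of overlapping genes, antisense transcripts and near-identical copies cannot be told apart in these counts. The 5 HTSeq summary rows, 24.8% to 28.9% of all counts, were left out.

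Counts were tested with edgeR 4.0.16 (R 4.3.3, TMM, filterByExpr with a minimum count of 10, robust quasi-likelihood, group as the only term), with Benjamini-Hochberg adjustment over 13390 genes, and checked on simulated data. The SE is the size of the log2 fold change over the square root of F. Log2 CPM used a prior count of 2. Intervals are exact at 95% and cover counting error only, since no molecular identifiers are named. Transcript lengths are those of the longest protein-coding transcript in GENCODE M21 (GRCm38), or of the longest of any kind where there was none. They were found for 97.9% of gene names. Coding lengths are those of the longest coding sequence of each gene, taken separately, and promoters are from RefSeq. Within groups, chi-square over degrees of freedom was 4.08 to 28.4 for each library against another, above sampling noise, so none was merged. The authors' files were used with no other normalization.

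The 9 genes, the gene lists and the tests were chosen with earlier results of these data known. Named genes are the 9, Crebbp, up to 4 called genes by smallest p from each list (or the 2 with the smallest p), the 2 most abundant tested genes of each marker list and the 5 nearest genes to 3 profiles, and not all are discussed. Alternatives were DESeq2 1.42.0, limma-voom (limma 3.58.1), also with quality weights per library, scaling by upper quartile or RLE, other filters, non-robust estimation, other lengths and leaving out each library. DESeq2 without shEmpty or shEmpty-2 and ratios per coding length were added after seeing the data. The marker lists for glia, leukocytes, endothelium, basal cells and neuroendocrine cells held 3, 2, 2, 2 and 8 tested genes. Of these edgeR called 0, beside 1.25% of all tested genes, which says little with so few genes tested. An unadjusted edgeR p under 0.05 was found in 1, 1, 0, 0 and 3, beside 16.5% of all tested genes. DESeq2 called 2 of the neuroendocrine genes, beside 5.3% of all genes. Map1b and Map2, also listed, were not analysed here.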

Additional observations from a re-analysis of the deposited data

How the results depend on the processing

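With all 6 libraries, Krt7, Krt8 and Krt18 were called lower under each alternative test, scaling, filter and estimation tried, and their direction held in every alternative including each omitted library. The number of filament genes called was 3 and ranged from 0 to 3 over the omissions (edgeR), with 0 without shEmpty or without shEmpty-2, where 1332 and 1238 genes of the whole table had an unadjusted p under 0.05 and DESeq2 called 3 filament genes in each case. Over all genes edgeR called 168, DESeq2 736, limma-voom with library quality weights 682, and edgeR between 0 and 389 with a library omitted. The genes called over the 5 lists of filament genes and filament partners numbered 4, with 14 in DESeq2, 13 with quality weights, and 0 to 8 with a library omitted. The log2 fold change of Nes ranged from -1.0 to 0.018 over the omissions, at 0.01814 without hairpin 5. The difference in log2 Krt8 to Krt18 ratio ranged from -0.20 to 0.0071 and changed sign without hairpin 2. The other ratios kept their sign in each alternative, and with 3 libraries a group none could reach an exact p under 0.05. For the type II to type I ratio the exact permutation p moved from 0.3 to 0.1 with counts not divided by length or per coding length. Crebbp passed with DESeq2 (adjusted p = 0.0148), with quality weights (0.0168) and without hairpin 2 (0.0478). No paired analysis was possible because the numbers of the hairpin libraries name hairpins and the control labels carry 1 number only. Depth limits Vim, Krt19, Nefl and Nefm, where single reads move a level by up to 0.0734 CPM. The causes of these changes were not tested.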
